A study of Mus musculus with 36 samples.

Results

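Kruppel-like factor genes were read from mRNA-seq of the mouse pre-B cell line B3, a dividing model of an early stage of B cell development. The members were the rows that carried one of 9 listed gene symbols. Of these, 7 were measured among the 12762 genes of the table, namely Klf2, Klf6, Klf7, Klf9, Klf10, Klf11 and Klf13. Klf3 and Klf4 were not analysed here. All cells had been transduced with an MSCV retroviral vector and sorted for GFP. In control cells the vector carried the hormone-binding domain of the estrogen receptor (ERt2) followed by an IRES and GFP. In Ikaros cells the same cassette encoded HA-tagged wild type Ikaros fused to ERt2, so that 4-hydroxy-tamoxifen (4-OHT) brings the fusion protein into the nucleus. Both lines received 0.5 uM 4-OHT and were collected after 2, 6, 12, 18 or 24 h. The 0 h cells are listed in the labels with the same dose, whereas the methods describe them as cultures without drug taken on separate occasions, and any comparison with 0 h therefore also compares occasions. Each of the 12 groups of line and time had 3 libraries from numbered culture batches, which were batches 1, 2 and 4 at 0 h and batches 1, 3 and 4 later, 36 libraries in all. Both lines are retrovirally transduced pools of 1 cell line and not primary pre-B cells, and their fusion protein is made from the vector rather than from the endogenous gene.

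Kruppel-like factors are transcription factors with zinc fingers at the end of the protein that bind GC-rich DNA and CACCC boxes. Members differ in the part outside the fingers, through which some activate genes and others recruit corepressors such as Sin3a or Ctbp1. In lymphocytes the family is best known for Klf2, which keeps resting cells out of division and controls their traffic through the sphingosine-1-phosphate receptor S1pr1. Ikaros, encoded by Ikzf1, is a zinc finger factor of lymphoid cells that stops the division of pre-B cells and drives their differentiation.

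The upstream sequences of 3 members are printed because Klf6, Klf13 and Klf2 were called higher in Ikaros than in control cells at 12 h and 18 h, Klf6 and Klf13 also at 24 h. They are RefSeq sequences of GRCm38.p6, read toward the start of the gene and ending before the first annotated exon base. Of the 7 members, 6 had an entry, and Klf10 had none. Capitals mark matches to the GC box GGGCGG and the CACCC box, which the family itself binds, to the E-box CACGTG, to the forkhead motif TGTTTAC and to a MEF2-like motif of CTA and TAG with 4 bases between them, on either strand, and adjoining matches may run together.
Klf6, chr13:5861239-5861481, forward strand: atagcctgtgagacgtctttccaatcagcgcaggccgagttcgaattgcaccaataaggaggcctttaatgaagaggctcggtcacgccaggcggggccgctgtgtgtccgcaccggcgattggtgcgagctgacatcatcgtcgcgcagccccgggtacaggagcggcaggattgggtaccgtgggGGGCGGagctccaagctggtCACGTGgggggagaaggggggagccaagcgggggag
Klf13, chr7:63938916-63939165, reverse strand: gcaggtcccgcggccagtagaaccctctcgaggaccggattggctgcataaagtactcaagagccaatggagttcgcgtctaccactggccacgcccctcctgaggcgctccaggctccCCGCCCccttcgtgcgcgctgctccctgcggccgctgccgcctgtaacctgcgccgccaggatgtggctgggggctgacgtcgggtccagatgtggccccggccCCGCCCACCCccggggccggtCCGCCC
Klf2, chr8:72318812-72319032, forward strand: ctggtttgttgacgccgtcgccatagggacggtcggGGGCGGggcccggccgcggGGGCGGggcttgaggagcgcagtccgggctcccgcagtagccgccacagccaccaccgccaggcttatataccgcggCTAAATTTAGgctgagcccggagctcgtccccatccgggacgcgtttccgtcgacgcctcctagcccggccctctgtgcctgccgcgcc
In Klf6 a GC box began 63 bases and an E-box 43 bases before the RefSeq start. Klf13 held GC boxes on the other strand at 131, 27 and 6 bases and a CACCC box at 22 bases before the start, which overlaps the middle GC box. Klf2 held GC boxes at 214 and 195 bases and the MEF2-like motif at 118 bases before the start. The core motif of Ikaros, TGGGAA, was searched as well and had no match in the windows of the 6 members. Over the 250-base windows of 32851 RefSeq promoters, 32.7% held a GC box, 52.0% a CACCC box, 6.02% an E-box, 3.20% the MEF2-like motif, 3.17% the forkhead motif and 21.6% TGGGAA. Those 250-base windows kept annotated exon bases, whereas the windows of the members ended before them, at 148 bases for Klf7. The shares and the matches in the members are thus over unlike lengths. The matches in the members describe the letters read and were not tested for binding.

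Expression is given as the normalized log2 value that the authors deposited, on a scale whose lowest value was set to 1. Library depth is unknown from such values, and a level on this scale is not compared between genes. Tests are limma contrasts, adjusted by Benjamini-Hochberg over all 12762 genes. Called means an adjusted p under 0.05. Per-library values are given in the order of the batch numbers. Ikzf1 stood between 13.95 and 14.85 in the 18 control libraries and between 19.63 and 20.93 in the 18 Ikaros libraries, so every library went with the line in its label. Of the B lineage markers, Cd79a had group means from 17.97 to 18.61, Pax5 from 15.94 to 17.25 and Ebf1 from 15.20 to 16.54. Of the T cell and fibroblast markers none was analysed here. Among 5 myeloid markers, Lyz2 and Itgam were measured, with group means of 4.56 to 9.37 and 4.08 to 9.89. At 24 h Lyz2 was lower in Ikaros cells by -2.94 and Itgam higher by 4.24. The sign of the Lyz2 difference was opposite at 0 h (2.94) and 2 h (2.66), both called, and Itgam was called at neither time. Of the erythroid list Hbb-b1, with group means from 4.60 to 7.05, was not called at 24 h. Earlier, in the 0, 2 and 6 h libraries, Hbb-b1 was called lower in Ikaros cells (-2.02, -2.13 and -1.25). Whether cells of another kind had a part in the results was not tested. In bulk RNA a change in the number of cells of a kind and a change of RNA per cell cannot be told apart.

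Klf6 had the largest difference from control of the family at 24 h, Klf13 was the first to be called, Klf10 fell, and Klf2 was called higher at 12 h and 18 h but not at 24 h. Klf7, Klf9 and Klf11 were not called between the lines at any time. Of the 7 members, 0 were called between the lines at 0 h, when 8.33% of all genes were called, and 0 at 2 h, when 19.1% were. At an unadjusted p under 0.05 limma listed 0 members at 0 h and 2 at 2 h, Klf7 and Klf13. At 6 h 1 member was called, or 14.3%, against 37.3% of all genes. The 4 members called at 12 h and at 18 h make 57.1%, beside 45.8% and 58.2% of all genes. At 24 h 3 members were called, or 42.9%, beside 62.9% of all genes. The share of members was thus below that of all genes at 0, 2, 6 and 24 h, above it at 12 h and near it at 18 h. As 1 member alone makes 14.3%, the gap at 12 h is smaller than 1 member, and the Klf2 call there was lost in some alternative fits. No result about the family is read from these shares. Libraries of the 2 lines did not overlap for 2, 3 and 1 of the 7 members at 0, 2 and 6 h, beside 32.7%, 27.9% and 41.0% of all genes. At 12, 18 and 24 h they did not overlap for 4, 4 and 3 members, beside 51.0%, 64.5% and 71.0% of all genes. On the log2 scale the median difference over the 7 members was 0.68 at 18 h and 0.08 at 24 h, and the median over all genes was -0.02 and -0.01.

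**Figure D1:**
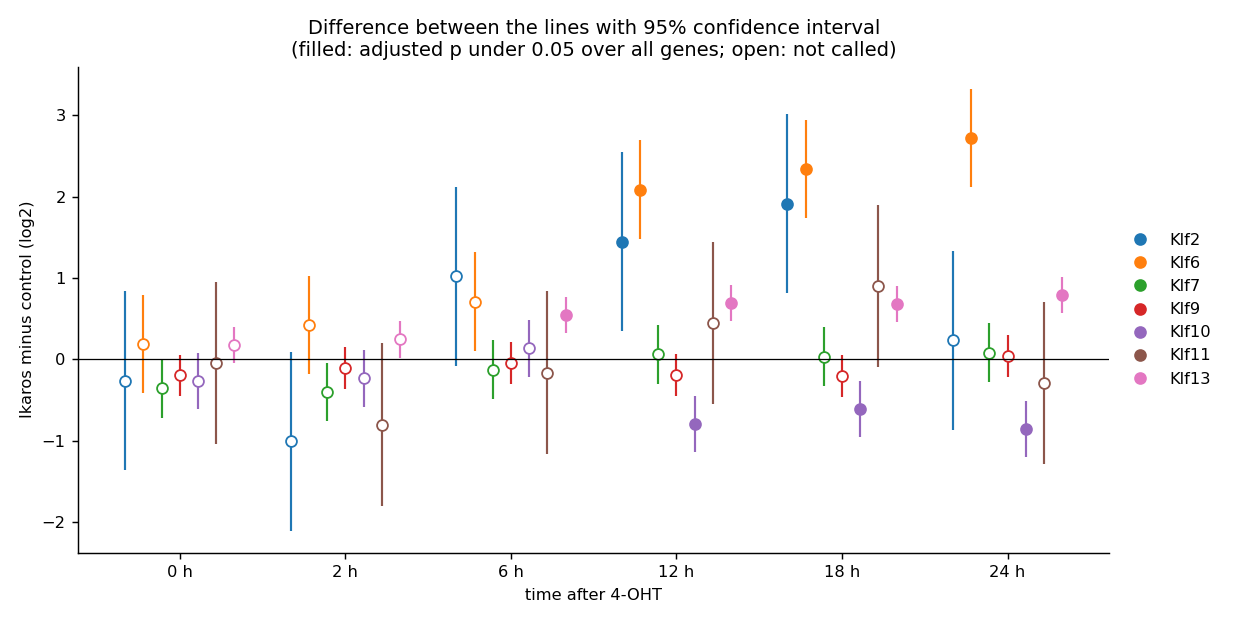
Difference between Ikaros and control cells in log2 expression (vertical axis) at each time after 4-OHT (horizontal axis) for the 7 measured Kruppel-like factor genes, with limma estimates as points, 95% confidence intervals as bars and filled points for calls. Klf6 climbed to 2.72 at 24 h, Klf13 to 0.79 and Klf10 fell to -0.86, while Klf2 went from 1.91 at 18 h to 0.23 at 24 h.

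Klf6 (ENSMUSG00000000078, GRCm38 chromosome 13, 5861482 to 5870394, forward strand, protein coding) encodes a widely expressed activator that can raise the cell cycle inhibitor Cdkn1a. In control cells it stood at 10.68, 10.36 and 10.50 at 0 h and at 11.41, 11.13 and 10.71 at 24 h. In Ikaros cells it stood at 10.90, 10.83 and 10.37 at 0 h, 11.48, 10.85 and 11.08 at 6 h, 12.97, 12.95 and 11.91 at 12 h, and 14.07, 13.97 and 13.38 at 24 h. The lines overlapped at 0 h and 6 h, and every Ikaros library lay above every control library at 2, 12, 18 and 24 h. The difference at 2 h was 0.42 (limma, SE 0.29, adjusted p 0.369). It was 0.71 at 6 h (limma, adjusted p 0.0600) and was called there with the culture batch as a block (adjusted p 0.00621). It was also called at 6 h without control 6 h replicate 1 (limma, adjusted p 0.0152), without Ikaros 6 h replicate 2 (adjusted p 0.0496) and without Ikaros 12 h replicate 3 (adjusted p 0.0366).

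From 12 h the rise of Klf6 was large against the spread of replicates. The difference was 2.08 at 12 h and 2.34 at 18 h (SE 0.29 by limma, adjusted p 1.71e-06 and 1.45e-07). At 24 h Klf6 stood at 13.80 ± 0.38 in Ikaros against 11.08 ± 0.35 in control libraries (SD, n = 3), 6.59-fold higher (limma, log2 difference 2.72, 95% interval 2.12 to 3.33, adjusted p 7.96e-09). Within the batches the 24 h difference was 2.66, 2.83 and 2.67. It exceeded that at 0 h by 2.53 (limma, SE 0.42, adjusted p 1.33e-05), and that at 2 h, which uses no 0 h library, by 2.30 (adjusted p 5.37e-05). Control cells at 24 h differed from their own 0 h by 0.57 (limma, adjusted p 0.462). The calls of Klf6 between the lines at 12, 18 and 24 h held in every alternative run.

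Klf13 (ENSMUSG00000052040, chromosome 7, 63886351 to 63938915, reverse strand, protein coding) encodes a Sin3a-binding member known for driving the chemokine gene Ccl5 in T cells. In control cells it stood at 13.08, 12.88 and 12.71 at 0 h, 13.33, 12.96 and 12.92 at 6 h, and 13.20, 12.98 and 13.03 at 24 h. In Ikaros cells it stood at 13.13, 13.09 and 12.98 at 0 h, 13.66, 13.62 and 13.56 at 6 h, and 13.88, 13.86 and 13.84 at 24 h. The lines overlapped at 0 h and were apart at every later time. Klf13 was the only member called at 6 h, with a difference of 0.54 (limma, SE 0.11, adjusted p 0.000291) that was not called when the 6 h groups were fitted alone (adjusted p 0.0645).

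Klf13 differed by 0.69 at 12 h, by 0.68 at 18 h and by 0.79 at 24 h, the last a 1.73-fold higher level (limma, 95% interval 0.57 to 1.01, adjusted p 4.78e-07). Within batches it was 0.68, 0.88 and 0.81 at 24 h. In Ikaros cells the mean went from 13.07 ± 0.08 at 0 h to 13.91 ± 0.08 at 12 h and stood at 13.86 ± 0.02 at 24 h (SD, n = 3), so most of the rise was seen by 12 h. Against 0 h the difference changed by 0.51 at 12 h, 0.50 at 18 h and 0.61 at 24 h (limma, adjusted p 0.0124, 0.00943 and 0.00172). Without replicate 1 of every group the changes at 12 h and 18 h were not called (limma, adjusted p 0.0965 and 0.138), and without replicate 2 none of the 3 was (adjusted p 0.176, 0.189 and 0.0713). The 12 h change was also not called without control 0 h replicate 1 (limma, adjusted p 0.0512), and that at 6 h, 0.36, was called without control 6 h replicate 1 (adjusted p 0.0236). Klf13 shares its position with the opposite-strand genes Gm27252 and E030018B13Rik, with no exon in common, and the strand setting of the counting was not given in the sources used here.

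Klf10 and Klf11 encode closely related repressors that are induced by TGF-beta and recruit Sin3a. Klf10 (ENSMUSG00000037465, chromosome 15, 38291463 to 38300706, reverse strand, protein coding) was the member that fell. It stood at 11.10, 10.87 and 10.96 in control and at 10.66, 10.69 and 10.78 in Ikaros cells at 0 h. By 6 h control cells read 10.68, 10.64 and 10.44 and Ikaros cells 10.90, 10.88 and 10.38. By 24 h control cells read 10.75, 11.03 and 11.00 and Ikaros cells 10.00, 10.23 and 9.97. Every Ikaros library was thus below every control library already at 0 h, by -0.27 on average without a call (limma, adjusted p 0.434), the lines overlapped at 2 h and 6 h, and they were apart again from 12 h.

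Klf10 was lower in Ikaros cells late in the course, with differences of -0.80 at 12 h, -0.61 at 18 h and -0.86 at 24 h (SE 0.17 by limma, adjusted p 0.000355, 0.00311 and 8.70e-05), and the last is a 1.81-fold lower level. Within batches it was -0.74, -0.80 and -1.02 at 24 h. The 24 h difference changed by -0.59 from 0 h (limma, SE 0.24, adjusted p 0.0437) and by -0.62 from 2 h (adjusted p 0.0348). These changes were close to the threshold. The change from 0 h was not called without any single library of 0 h or 24 h except control 0 h replicate 1, control 24 h replicate 1 and Ikaros 24 h replicate 2, with adjusted p between 0.0540 and 0.0940. The change from 2 h was not called without any single library of 2 h or 24 h except control 2 h replicate 2, Ikaros 2 h replicate 3, control 24 h replicate 1 and Ikaros 24 h replicate 2, with adjusted p between 0.0680 and 0.115. At 12 h the change of -0.53 from 0 h was called with the culture batch as a block (limma, adjusted p 0.0377) or without Ikaros 12 h replicate 2 (adjusted p 0.0486), and not in the fit without a block (adjusted p 0.0977).

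**Figure D2:**
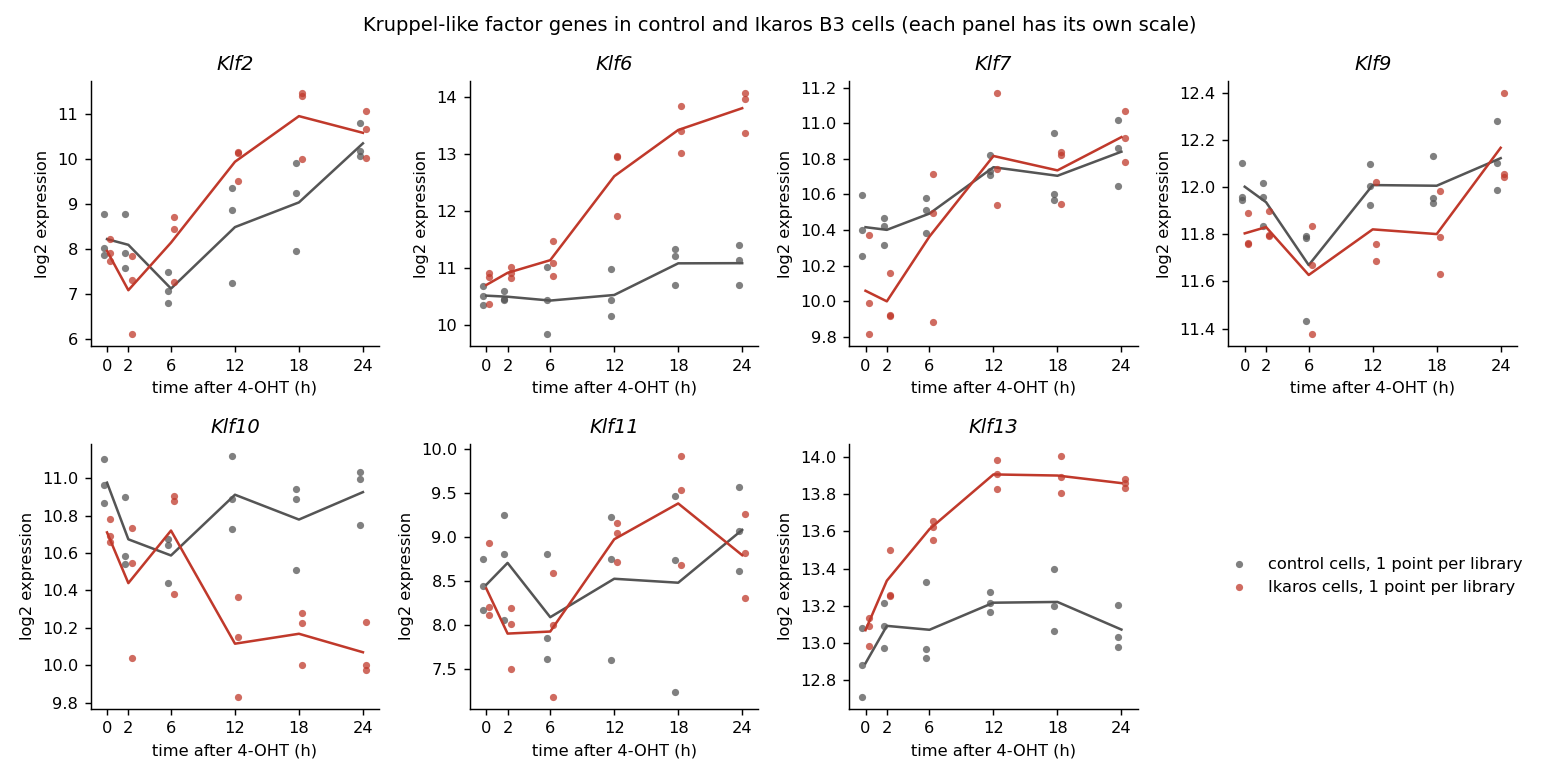
Log2 expression (vertical axis, its own scale in each panel) of the 7 measured Kruppel-like factor genes at each time after 4-OHT (horizontal axis), with 1 point per library and lines through the means of 3 libraries, control in grey and Ikaros in red. At 12, 18 and 24 h the libraries of the lines do not overlap for Klf6, Klf10 and Klf13. They are also apart at 2 h and 6 h for Klf13, at 2 h for Klf6 and Klf7, and at 0 h for Klf9 and Klf10. For Klf2 they are apart at 12 h and 18 h and overlap at 24 h. Over all genes the share without overlap is 32.7%, 27.9% and 41.0% at 0, 2 and 6 h. It is 51.0%, 64.5% and 71.0% at 12, 18 and 24 h.

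Klf2 (ENSMUSG00000055148, chromosome 8, 72319033 to 72321656, forward strand, protein coding) had higher means at 24 h than at 0 h in both lines, as did every other measured member except Klf10. In control cells it stood at 8.77, 7.87 and 8.02 at 0 h, 7.49, 6.82 and 7.07 at 6 h, 8.86, 9.35 and 7.26 at 12 h, 9.90, 9.25 and 7.96 at 18 h, and 10.80, 10.17 and 10.06 at 24 h. In Ikaros cells it stood at 7.92, 8.23 and 7.73 at 0 h, 8.45, 7.28 and 8.71 at 6 h, 10.12, 10.16 and 9.52 at 12 h, 11.38, 11.46 and 10.00 at 18 h, and 11.05, 10.67 and 10.01 at 24 h. Every Ikaros library was above every control library at 12 h and 18 h, and the lines overlapped at 0, 2, 6 and 24 h. At 2 h the Ikaros values of 7.31, 7.84 and 6.12 lay mostly below the control values of 8.78, 7.92 and 7.59, without a call (limma, difference -1.01, adjusted p 0.212).

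The difference of Klf2 was 1.45 at 12 h and 1.91 at 18 h (limma, adjusted p 0.0286 and 0.00337, with an SE of 0.54), 2.73-fold and 3.76-fold. At 24 h it was 0.23 with a 95% interval from -0.87 to 1.33 (limma, adjusted p 0.723), which still holds a difference as large as 1.33. The 12 h call was lost without control 12 h replicate 3 (limma, difference 0.83, adjusted p 0.234), without Ikaros 12 h replicate 1 (adjusted p 0.0764) and without Ikaros 12 h replicate 2 (adjusted p 0.0792). It was also lost without replicate 1, 2 or 3 of every group (limma, adjusted p 0.116, 0.0758 and 0.0593). The change from 0 h to 18 h, 2.17, was called (limma, SE 0.76, adjusted p 0.0220), but not without control 0 h replicate 1 (adjusted p 0.0632), control 18 h replicate 3 (adjusted p 0.0855), Ikaros 18 h replicate 1 (adjusted p 0.0569) or Ikaros 18 h replicate 2 (adjusted p 0.0595). At 12 h the change of 1.71 was called with the culture batch as a block (limma, adjusted p 0.0294) or without control 12 h replicate 2 (adjusted p 0.0442), against 0.0906 without a block.

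Within its own line Klf2 rose in Ikaros cells by 1.98 at 12 h, 2.99 at 18 h and 2.62 at 24 h against 0 h (limma, adjusted p 0.00370, 3.39e-05 and 0.000138). In control cells Klf2 at 24 h was 2.12 above 0 h, a 4.35-fold higher level with no overlap of libraries (limma, SE 0.54, adjusted p 0.0695). With the culture batch as a block this became a call, with a rise of 2.04 (limma, adjusted p 0.0432), as it did without control 12 h replicate 3 (adjusted p 0.0490) or control 18 h replicate 3 (adjusted p 0.0465). That block treats a batch number as the same culture at 0 h and later. With separate batches at 0 h the rise stayed at 2.12 and was called (limma, adjusted p 0.0122). Control cells at 24 h against 2 h, a comparison added after the values were seen that uses no 0 h library, gave 2.25 (limma, adjusted p 0.0548, and 0.0114 with the block), and 0 members were called there without the block, with 2 at an unadjusted p under 0.05, beside 0.454% of all genes. It was called in 6 of the fits that left out a single library, with adjusted p from 0.0356 to 0.0490, and those left out control 12 h replicate 3, control 18 h replicates 1 and 3, Ikaros 2 h replicate 3, Ikaros 6 h replicate 2 and Ikaros 18 h replicate 3. The narrowing between 18 h and 24 h, also compared after the values were seen, was -1.68 (limma, SE 0.76, unadjusted p 0.0357, adjusted p 0.261). No member was called for it, with Klf2 alone at an unadjusted p under 0.05, beside 2.63% of all genes.

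Klf11 (ENSMUSG00000020653, chromosome 12, 24651274 to 24662789, forward strand, protein coding) overlapped between the lines at every time. At 18 h it stood at 9.46, 8.75 and 7.24 in control and 9.92, 9.54 and 8.68 in Ikaros cells, and at 24 h at 9.57, 9.07 and 8.61 in control and 9.26, 8.82 and 8.31 in Ikaros cells. In both lines and at both times batch 1 was highest and batch 4 lowest. The difference was 0.90 at 18 h (limma, adjusted p 0.114) and was called with the culture batch as a block (adjusted p 0.0270) and without control 18 h replicate 1 (adjusted p 0.0222). At 24 h it was -0.29 with a 95% interval from -1.28 to 0.71. Over the 10 groups from 2 h on, batch 4 was the lowest of the 3 libraries in 9 groups for Klf11, 8 for Klf2 and 9 for Klf6, by a mean of -0.61, -0.55 and -0.34 from the group mean. For Klf13 the mean deviation of batch 4 was 0.01. The part of the batch in these differences is read from the within-batch values, which for Klf2 at 18 h were 1.48, 2.21 and 2.04 and for Klf11 at 18 h 0.46, 0.79 and 1.44.

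**Figure D3:**
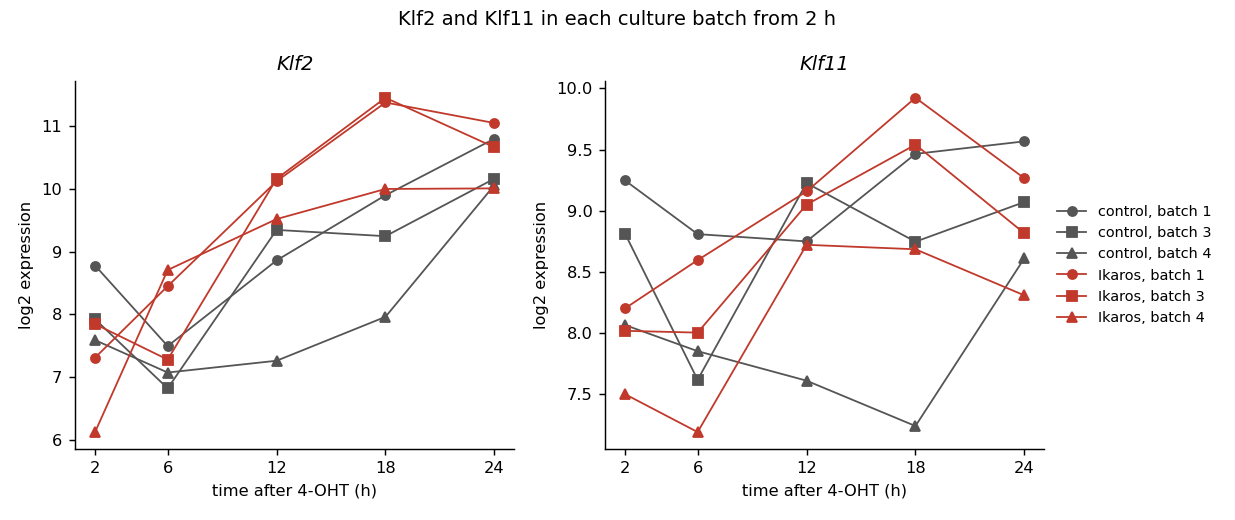
Log2 expression (vertical axes) of Klf2 and Klf11 from 2 h to 24 h after 4-OHT (horizontal axes), with a line for each culture batch in control (grey) and Ikaros cells (red). Batch 4, the triangles, lies lowest in 8 of 10 groups for Klf2 and 9 of 10 for Klf11, and the control libraries of Klf2 end between 10.06 and 10.80 at 24 h, and overlap the Ikaros libraries at 10.01 to 11.05.

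Klf7 (ENSMUSG00000025959, chromosome 1, 64029447 to 64122282, reverse strand, protein coding), a close relative of Klf6 that is known from neurons, was at a like level in both lines late in the course. It stood at 10.64, 10.86 and 11.02 in control and at 11.07, 10.78 and 10.92 in Ikaros cells at 24 h, a difference of 0.08 with a 95% interval from -0.28 to 0.44 (limma, adjusted p 0.703). At 2 h all 3 Ikaros libraries, at 9.92, 10.16 and 9.92, were below the control libraries at 10.47, 10.42 and 10.31, without a call (limma, difference -0.40, adjusted p 0.117). Within Ikaros cells Klf7 rose by 0.76 at 12 h, 0.68 at 18 h and 0.86 at 24 h against 0 h (limma, adjusted p 0.000918, 0.00197 and 0.000131). At 6 h it was called without Ikaros 6 h replicate 3 (limma, difference 0.55, adjusted p 0.0184, against 0.193 with it). The control mean went from 10.42 to 10.84 between 0 h and 24 h (limma, difference 0.42, adjusted p 0.345), and the difference between the lines was not shown to change (change of 0.44 from 0 h to 24 h, adjusted p 0.150). Exons of Klf7 overlap those of the opposite-strand genes Gm13748 and Gm26649.

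Klf9 (ENSMUSG00000033863, chromosome 19, 23141226 to 23168134, forward strand, protein coding), which glucocorticoids induce in many cells, varied least between the lines. At 0 h the Ikaros libraries stood at 11.89, 11.76 and 11.76, all below the control libraries at 12.10, 11.94 and 11.96, and at 24 h they stood at 12.04, 12.40 and 12.06 against 12.10, 11.99 and 12.28. The difference was -0.20 at 0 h (limma, adjusted p 0.429) and 0.04 at 24 h, with a 95% interval from -0.21 to 0.30. In Ikaros cells Klf9 rose by 0.36 between 0 h and 24 h (limma, adjusted p 0.0140), a call that was lost without Ikaros 24 h replicate 2 (difference 0.25, adjusted p 0.115). At 6 h control cells were at 11.67 ± 0.21 and Ikaros cells at 11.63 ± 0.23 (SD, n = 3), the lowest mean of each line. Against 0 h, control Klf9 at 6 h was at -0.33 (limma, adjusted p 0.0929) and Klf10 -0.39 (adjusted p 0.137). With the culture batch as a block both were called there, at -0.39 for Klf9 and -0.48 for Klf10 (limma, adjusted p 0.0273 and 0.0267). With separate batches at 0 h in the block they stayed at -0.33 and -0.39 and were called as well (limma, adjusted p 0.0404 and 0.0458).

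The courses within each line show which members moved with time. In Ikaros cells 0 members were called at 2 h against 0 h, beside 19.2% of all genes, with 1 at an unadjusted p under 0.05. At 6 h 1 was called, Klf13, beside 32.8%. At 12 h and at 18 h Klf2, Klf6, Klf7, Klf10 and Klf13 were called, 5 of 7, beside 46.1% and 54.6%. At 24 h 6 of 7 were called, all but Klf11, beside 60.6% of all genes. The Klf10 call at 12 h was lost without Ikaros 12 h replicate 3 (limma, adjusted p 0.0506). Klf11 was called at 18 h without Ikaros 18 h replicate 3 (limma, difference 1.31, adjusted p 0.0427, against 0.0953 with it). In control cells limma called 0 members at each of 2, 6, 12, 18 and 24 h, beside 0.0470%, 5.10%, 0.0549%, 0.478% and 0.470% of all genes, and 0, 2, 1, 1 and 2 members were at an unadjusted p under 0.05. With the block, Klf9 and Klf10 were called at 6 h and Klf2 at 24 h, and the share of all genes with the block is not given.

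The change of the difference between the lines since 0 h was tested as well. Limma called 0 members at 2 h, beside 3.10% of all genes and with 0 at an unadjusted p under 0.05. It called 0 at 6 h, beside 15.9% and with 1, Klf13, at an unadjusted p under 0.05. At 12 h 2 members were called, Klf6 and Klf13, beside 29.7%. With the block Klf2 and Klf10 were called there too, and the share of all genes with the block is not given. At 18 h 3 were called, Klf2, Klf6 and Klf13, beside 43.0%. At 24 h 3 were called, Klf6, Klf10 and Klf13, beside 48.4%, and the same 3 between 2 h and 24 h, beside 47.3%. Over all 5 changes from 0 h, a moderated F test called Klf2, Klf6, Klf10 and Klf13, beside 59.8% of all genes. The F test over the 4 changes from 2 h called these 4 too, beside 55.2%. In the second, the call of Klf2 was lost without Ikaros 2 h replicate 3 (limma, adjusted p 0.0520) and that of Klf13 without control 2 h replicates 1 or 3 or Ikaros 2 h replicates 1 or 2 (adjusted p 0.0569 to 0.0875). Without replicate 1 or 2 of every group, Klf2, Klf10 and Klf13 lost their calls in both F tests (limma, adjusted p 0.0696 to 0.358), and Klf6 kept them. With the block Klf11 was called in both F tests (adjusted p 0.0487 and 0.0312).

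Across the 12 group means, which share the cell line, the drug and the batches, the members fell into like and opposite courses. The Pearson correlation was 0.89 between Klf6 and Klf13, -0.85 between Klf6 and Klf10 and -0.86 between Klf10 and Klf13, given as descriptions over 12 groups. Klf2 went with Klf11 at 0.88, with Klf6 at 0.81 and with Klf7 at 0.80. The genes most like each member in the whole table were also found over the 12 means. They were Jun (0.932) and Fbxl22 (0.925) for Klf2, Ypel5 (0.986) and Tuba1a (0.984) for Klf6, and Msrb1 (0.983) and Lactbl1 (0.979) for Klf13. For Klf10 they were Rpl8 (0.976) and Depdc7 (0.974), for Klf7 Gstk1 (0.949) and Cnn2 (0.921), for Klf9 Gm22154 (0.875) and Bbc3 (0.875), and for Klf11 Klf2 (0.881) and 6030408B16Rik (0.876).

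Genes around the family were read from 4 lists. Of 17 other KLF and SP genes, 7 were measured, and at 24 h 1 was called higher, 1 lower and 5 not, with a median of 0.05 against -0.01 for all genes and beside 62.9% of all genes called. Sp4, an activator of the related SP group, was higher by 2.10, and Klf16, a repressor of the Klf9 and Klf13 group, lower by -1.03, while Sp1, Sp2 and Sp3 had differences of -0.09, 0.05 and 0.51 without a call. Of 10 cofactors 9 were measured, and 6 were higher, 1 lower and 2 not called at 24 h, with a median of 0.33. The 7 called of 9 stand beside 62.9% of all genes called at that time. The higher ones were the acetyltransferases Kat2b (1.28), Ep300 (1.01) and Crebbp (0.89), and Sin3b (0.53), Hdac1 (0.33) and Ctbp1 (0.24). The deacetylase Hdac2 was lower by -0.56, and Sin3a, through which Klf10, Klf11 and Klf13 can repress, differed by -0.05 without a call.

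The 10 upstream regulators were all measured, and 6 were higher, 1 lower and 3 not called at 24 h, with a median of 0.48 against -0.01 for all genes. The 7 called of 10 again stand beside 62.9% of all genes. Foxo1, which activates Klf2 in lymphocytes, went from a difference of -0.35 at 0 h to 2.13 at 24 h, and Foxo3 was at 1.72 at 24 h. The kinases Map2k5 and Mapk7, which act through MEF2 factors on Klf2, differed by 0.24 and -0.03 without a call, and Mef2a, Mef2c and Mef2d were higher by 0.57, 0.39 and 0.58. Mef2c was already higher by 0.46 at 0 h. Of the ubiquitin ligases that act on Kruppel-like factors, Smurf1 was higher by 1.50 and Wwp1 lower by -0.52. The third, Fbxw7, differed by -0.36 without a call at 24 h, and was called lower at 6 h (-0.95) and 18 h (-0.53).

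Of 11 genes known as targets of the family 8 were measured, and 3 were higher, 4 lower and 1 not called at 24 h, with a median of 0.10, so that 7 of 8 were called beside 62.9% of all genes. The inhibitor Cdkn1b was higher by 3.14 and the cyclin genes Ccnd2, Ccne1 and Ccnb1 were lower by -3.25, -1.73 and -1.25. At 0 h Cdkn1b and Ccnd2 were both called higher already, by 0.66 and 0.70, and Ccne1 and Ccnb1 were not called. Cdkn1a, the target most tied to Klf6, was higher by 0.77 at 6 h and lower by -0.61 at 24 h, when Klf6 differed most. S1pr1, the receptor gene under Klf2, began lower in Ikaros cells, by -1.17 at 0 h, and was then higher, by 1.54 at 18 h and 0.81 at 24 h. Itgb7, an integrin gene that Klf2 regulates in T cells, differed by 5.27 at 6 h and by 1.09 without a call at 24 h. Smad7, a TGF-beta inhibitor gene that Klf10 can repress, was higher by 1.27 at 24 h. The members and lists do not share a test here, and no link between a factor and a target was tested.

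**Figure D4:**
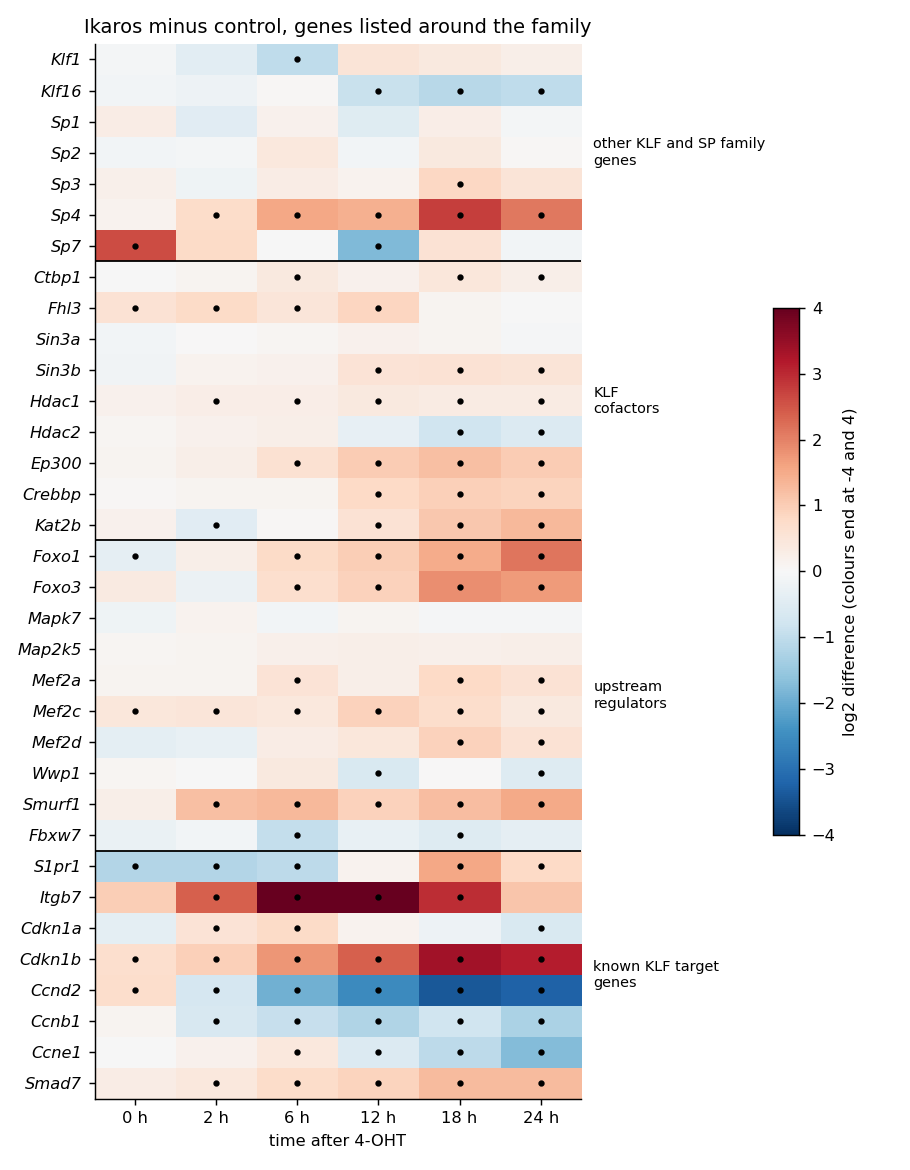
Difference between Ikaros and control cells in log2 expression (colour, ending at -4 and 4, so that Itgb7 at 6 h and 12 h lies beyond the scale) at each time (columns) for the measured genes of the 4 lists (rows), with a dot where limma called the gene. Cdkn1b reached 3.14 and Ccnd2 -3.25 at 24 h, and S1pr1 went from -1.17 at 0 h to 1.54 at 18 h.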

How the data were processed

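Messenger RNA was sequenced by a strand-specific paired-end protocol in 36 libraries of B3 cells. Per the methods, the authors mapped fragments to mm10 with TopHat2 (unique best hits), counted them per gene with HTSeq, corrected for GC content and length with cqn and removed the effect of library preparation with ComBat. The deposited unit is log2 expression from cqn, shifted so that the table starts at 1. Its base is not written in the file, and folds rest on base 2. No counts were used, so depth and counting error are unknown, and batch adjustment before deposition may make standard errors too small.

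All contrasts came from limma 3.58.1 (R 4.3.3; lmFit, contrasts.fit and eBayes) with 1 model of 12 group means, with Benjamini-Hochberg adjustment over 12762 genes and two-sided tests. The members and lists were chosen with earlier results of these data known. The text names the members, Ikzf1, the listed genes and, for each member, the 2 genes with the highest Pearson correlation over group means. Positions are from GENCODE mouse release M21 on GRCm38 and upstream sequences from RefSeq, of which the part in annotated exons was left out. The alternatives were a culture batch block, with and without separate 0 h batches, a filter at the 25th percentile of mean value, quantile normalization, trended robust eBayes, refits with the compared groups alone and refits that leave out each replicate or library. The script was tested on simulated data.

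The labels give control and Ikaros cultures of 1 batch the same number, so these numbers pair the libraries. Across genes, the correlation of deviations from the group means in the 18 pairs was between -0.0620 and 0.507, with a median of 0.127, and 12 of the 18 were above 0.1.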

Additional observations from a re-analysis of the deposited data

Results flagged for a closer look

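For each member, the gap between the lines was compared from time to time (limma, Benjamini-Hochberg over all genes), and 11 of these changes were called. Of all genes, 29.7%, 43.0% and 48.4% were called for the change from 0 h at 12, 18 and 24 h. Between 2 h and 24 h 47.3% were. For Klf6 the difference grew from 0 h by 1.90 at 12 h, by 2.15 at 18 h and by 2.53 at 24 h, and from 2 h to 24 h by 2.30. For Klf13 it grew from 0 h by 0.51 at 12 h, by 0.50 at 18 h and by 0.61 at 24 h, and from 2 h to 24 h by 0.55. For Klf10 it went down from 0 h to 24 h by -0.59 and from 2 h to 24 h by -0.62. For Klf2 it grew from 0 h to 18 h by 2.17. Without replicate 2 of every group, the changes of Klf2, Klf10 and Klf13 all lost their calls, and those of Klf6 kept them. The changes from 0 h share their 0 h libraries, and 0 h also differs from the later times in the occasion of culture. The cause of these changes was not tested.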

How the results depend on the processing

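Each comparison of a member was counted once for each alternative fit. Of these counts, 8023 kept the call or lack of it, 71 lost it and 44 gained it, and no call changed direction. Most of the fits left out 1 library, often from a group outside the comparison, and there the estimate could not change. With the batch number as a replicate block, with or without separate 0 h batches, 2 members were called between the lines at 6 h, 4 for the change from 0 h at 12 h, 1 for control cells at 24 h against 2 h, 2 for control cells at 6 h and 1 at 24 h against 0 h. With separate 0 h batches 1 member, Klf11, was called at 2 h (limma, adjusted p 0.0371), and Klf11 also at 18 h within Ikaros cells (adjusted p 0.00459). Beside these and the block values given with the results, the block changed no other call of a member. Shares of all genes called were taken only from the fit of all 36 libraries without a block. The counts of members in the alternative fits therefore stand without such a share and are not read as a gain or loss of the family. When only the groups compared were fitted, 0 members were called between the lines at 6 h, and the calls of Klf2 at 12 h (limma, adjusted p 0.0904) and of Klf10 between 2 h and 24 h (adjusted p 0.0769) were lost. The filter on low values left out Klf2 and Klf11, whose mean values of 8.83 and 8.56 lie under its limit of 9.51, so they were not tested there.

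Without single libraries or whole replicates, the count of members called between the lines was 1 to 2 at 6 h, 3 to 4 at 12 h and 2 to 5 at 18 h. It was 0 to 1, 1 to 3, 1 to 4 and 1 to 3 for the change from 0 h at 6, 12, 18 and 24 h, and 1 to 4 for that between 2 h and 24 h. It was 1 to 2 at 6 h and 3 to 6 at 18 h in Ikaros cells, 0 to 1 at 24 h in control cells against 0 h and against 2 h, and 1 to 5 and 1 to 4 in the F tests over 5 and 4 changes. Without replicate 1 of every group Klf10 was not called at 18 h (limma, adjusted p 0.113), and without replicate 2 neither Klf10 (adjusted p 0.0534) nor Klf2 (adjusted p 0.0585) was, and the change of Klf13 between 2 h and 24 h was not called (adjusted p 0.107). Without replicate 3, Klf7 was called for the change from 0 h at 18 h (adjusted p 0.0354). Of the listed genes at 24 h, 3 upstream regulators and 4 cofactors were called without replicate 2, and 4 upstream regulators without replicate 1. The cause of each lost or gained call was not tested, beyond the smaller number of libraries fitted. In the fit without a block the intervals of Klf2 and Klf11 are wide. For Klf11 at 18 h the SE was 0.48 there and 0.34 with the block.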
